A study of Mus musculus with 6 samples.

Results

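Camk2a, Slc6a7, Cck and Nrn1, 4 genes tied to excitatory synapses, peptide signalling and activity-linked growth of neurons, were described in 6 mouse brainstem gliomas. They are 4 of the 223 genes in the deposited table, and each was chosen by its name from genes that the authors had selected on an adjusted p under 0.05 between the same tumours. Their difference between the groups is therefore a description of that selection. All 6 tumours arose in C57BL/6 mice with the Nestin tv-a transgene, in which the nestin promoter drives the receptor for an avian virus in neural progenitors, and with a floxed p53 gene. All carried the glioma-driving growth factor PDGF-B and had lost p53. In 3 of them H3.3K27M, the lysine-to-methionine mutant of histone variant H3.3 found in diffuse midline glioma, was present too, and 3 were without it. The titles of the latter read H3.3WT, and the labels do not say whether a wild-type H3.3 was introduced. The labels give no ages.

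CaMKII, whose alpha subunit Camk2a encodes, is an abundant kinase of the postsynaptic density in forebrain excitatory neurons, where calcium entry through glutamate receptors switches it on and synapses are strengthened. Slc6a7 encodes a sodium-dependent L-proline transporter of the SLC6 family, found on the terminals of some glutamatergic neurons. Cck encodes the precursor of cholecystokinin, a peptide released in the brain by many cortical projection neurons and also by a class of inhibitory interneurons. Nrn1 encodes neuritin, a lipid-anchored surface protein that promotes growth of neurites and synapses and that neuronal activity and neurotrophins induce.

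Of the 4 genes, the RefSeq promoter table matched Cck. The 250 bases before its annotated start (GRCm38.p6, chr9:121495695-121495944, minus strand) are shown because the gene is known for cAMP- and calcium-responsive transcription, for which the cAMP response element (CRE) is the classical motif. Capitals mark, in order, a CRE half-site (CGTCA) and an E-box (CAGATG), a motif bound by basic helix-loop-helix factors. Other E-boxes of the form CANNTG, such as CACGTG and CAGGTG in this window, were not searched and are left unmarked.
Cck promoter: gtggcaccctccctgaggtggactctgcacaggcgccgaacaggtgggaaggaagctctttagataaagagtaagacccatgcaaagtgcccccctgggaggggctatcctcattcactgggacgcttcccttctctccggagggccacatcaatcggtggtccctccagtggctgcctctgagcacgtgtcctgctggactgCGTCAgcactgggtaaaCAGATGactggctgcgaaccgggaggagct

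Both marked motifs were searched on both strands and were found on the strand of the gene, the half-site starting 47 bases and the E-box CAGATG 30 bases before the start. A half-site was held by 17.8% and this E-box by 14.4% of all 32851 promoter windows of the same length, so neither match is rare. The full CRE (TGACGTCA, 1.55% of windows), which contains the half-site, the AP-1 motif (TGANTCA, 6.75%), TATAAA (12.4%) and the GC box GGGCGG (32.7%) had no match in the Cck window. A match describes letters only, and binding was not measured.

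Values are normalized counts, that is reads divided by a size factor of the tumour, unless a log2 scale is named. Each tumour had 215758 to 277881 reads on the listed genes, and its total depth is not given. The deposited adjusted p-values imply 16365 gene tests, of which the table holds 1.36% (223 genes), 1.11% as higher (182 genes) and 0.251% as lower (41 genes) in H3.3K27M tumours. All 4 genes are among the 182 higher ones, as the choice of members fixes. The titles of H3.3K27M tumours open with 12 and those of the others with 11. The labels do not explain these numbers, so whatever they mark and the mutation cannot be told apart. H3.3K27M replicates 1 and 2 also share the second number of the title, 623, while the design text calls the tumours independent. In bulk tissue, fewer cells of a type and less RNA per cell cannot be told apart either.

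Camk2a (ENSMUSG00000024617, chromosome 18) had 882, 313 and 766 normalized counts across H3.3K27M replicates 1 to 3, and 130, 96.6 and 18.5 in replicates 1, 2 and 3 without the mutation. Replicate 2 was the lowest with H3.3K27M and replicate 3 the lowest without it, and the groups did not overlap. The lowest H3.3K27M tumour held 2.41 times as much as the highest of the others. The group means were 654 ± 301 and 81.7 ± 57.1 (SD, n = 3 each). Camk2a is 8.01-fold higher in the authors' deposited table (adjusted p = 0.0125), which puts it nearer to the threshold of 0.05 than the other 3 genes.

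Slc6a7 (ENSMUSG00000052026, chromosome 18), the proline transporter gene, had 129, 104 and 87.7 normalized counts across H3.3K27M replicates 1 to 3, and 5.03, 11.7 and 0 in the others. The H3.3K27M tumours lay close together, all far above the other group, with 7.49 times as much in the lowest of them as in the highest of the others. The means were 107 ± 20.9 and 5.58 ± 5.87 (SD, n = 3 each). The other group rests on few reads, 5, 12 and 0 as the value steps imply, and 0 reads in replicate 3 allow a level of up to 3.27 normalized counts. Pooled reads, 329 against 17, gave a scaled ratio of 18.5 (exact 95% counting interval 11.4 to 32.2). The authors' deposited table gives Slc6a7 as 19.2-fold higher (adjusted p = 3.31e-09). That ratio was 42.6 without replicate 2 and 12.8 without replicate 3 of the tumours lacking the mutation. From mean log2(normalized count + 10) it was 7.81, below the 8.07 of Camk2a on that scale.

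Cck (ENSMUSG00000032532, chromosome 9), the cholecystokinin precursor gene, had 89.6, 53.7 and 115 normalized counts across H3.3K27M replicates 1 to 3, and 16.1, 22.4 and 0 in the others. As for Camk2a, H3.3K27M replicate 2 was lowest in its group and replicate 3 lowest in the other, without overlap. The means were 86.0 ± 30.6 and 12.8 ± 11.6 (SD, n = 3 each). Pooled reads were 266 against 39, a scaled ratio of 6.53 (counting interval 4.65 to 9.39). The authors' deposited table gives Cck as 6.69-fold higher (adjusted p = 0.00251). The ratio was 10.7 without replicate 2 and 4.46 without replicate 3 of the tumours lacking H3.3K27M, and 11.3 from mean log2 values with a pseudocount of 1.

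Nrn1 (ENSMUSG00000039114, chromosome 13), the neuritin gene, had 312, 162 and 299 normalized counts across H3.3K27M replicates 1 to 3, and 64.4, 33.2 and 10.9 in the others. The same tumours were lowest in each group as for Camk2a, and the groups did not overlap. The means were 258 ± 83.0 and 36.2 ± 26.9 (SD, n = 3 each). Nrn1 is listed in the authors' deposited table as 7.12-fold higher (adjusted p = 1.13e-04). The ratio was 11.7 without replicate 1 and 5.28 without replicate 3 of the tumours lacking the mutation. In GENCODE M21 the exons of Nrn1 overlap those of Fars2, a mitochondrial tRNA synthetase gene on the opposite strand. As use of strand is not stated, reads from their shared stretch cannot be told apart.

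**Figure D1:**
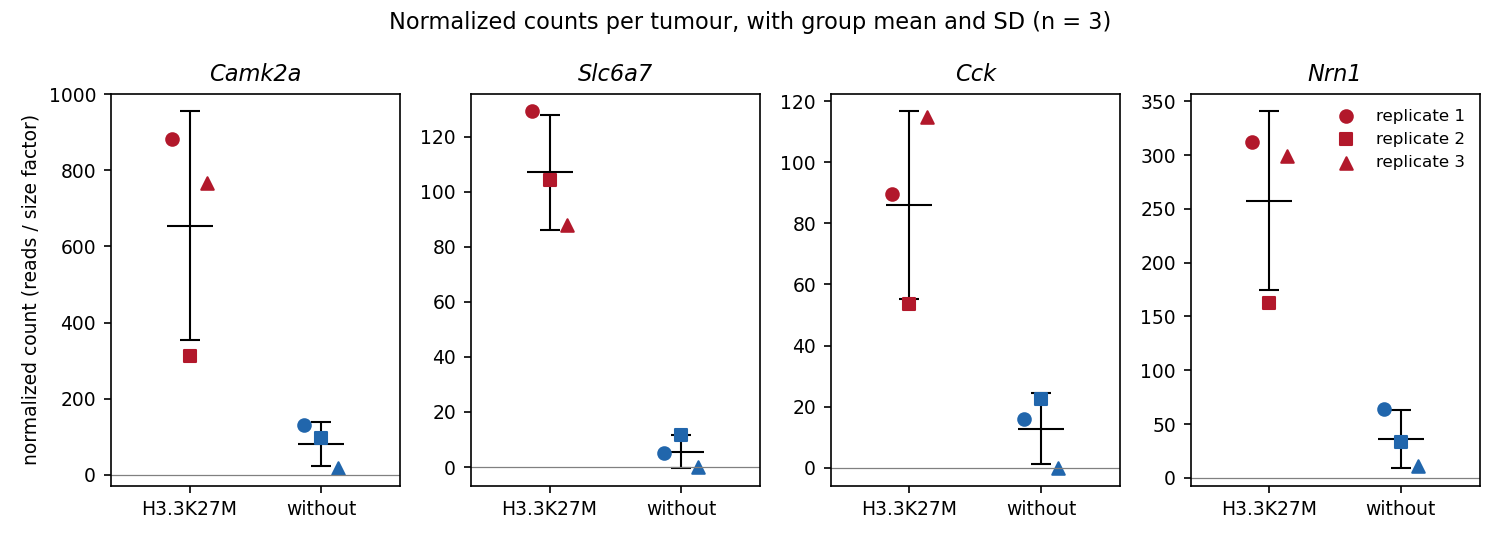
Normalized count (reads divided by size factor) of each gene in each tumour, with markers for replicates, a horizontal tick for the group mean and bars for the SD (n = 3 per group). Replicate 2 is lowest of the H3.3K27M tumours for Camk2a, Cck and Nrn1 but not for Slc6a7, and replicate 3 is lowest of the others for all 4 genes.

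Levels were compared between genes per kilobase of exon, using the merged exons of GENCODE M21, which may be longer than the transcripts made in these tumours. In H3.3K27M tumours Nrn1 was at 115 ± 36.9 and Camk2a at 87.6 ± 40.3 normalized counts per kilobase. Cck followed at 65.9 ± 23.5 and Slc6a7 at 31.1 ± 6.06 (SD, n = 3 each). Neighbours among the first 3 of this order lay within each other's SDs, although the order of all 4 genes was the same in each of the 3 tumours. Without H3.3K27M the order of the means was the same, at 16.1 ± 11.9 for Nrn1, 10.9 ± 7.65 for Camk2a, 9.85 ± 8.87 for Cck and 1.62 ± 1.71 for Slc6a7. There the order of single tumours differed, with Cck the highest in replicate 2, and Nrn1, Camk2a and Cck again overlapped within their SDs. The neuritin transcript was thus the most abundant per length in both groups by its mean, and the proline transporter the least.

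Among the 182 higher genes, Slc6a7 had the 8th highest ratio of group means, Camk2a the 32nd, Nrn1 the 37th and Cck the 40th. The median log2 ratio of the 4 was 2.92, against 1.58 over all 182 higher genes. Lower genes of the table had larger ratios, with a median of 2.17 in the 91 higher genes under the median level of 286 normalized counts and 1.00 in the 91 at or above it. Of the 4, Camk2a alone lies above that level, at a mean of 368 over the 6 tumours. The part of level in the size of these ratios was not tested.

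**Figure D2:**
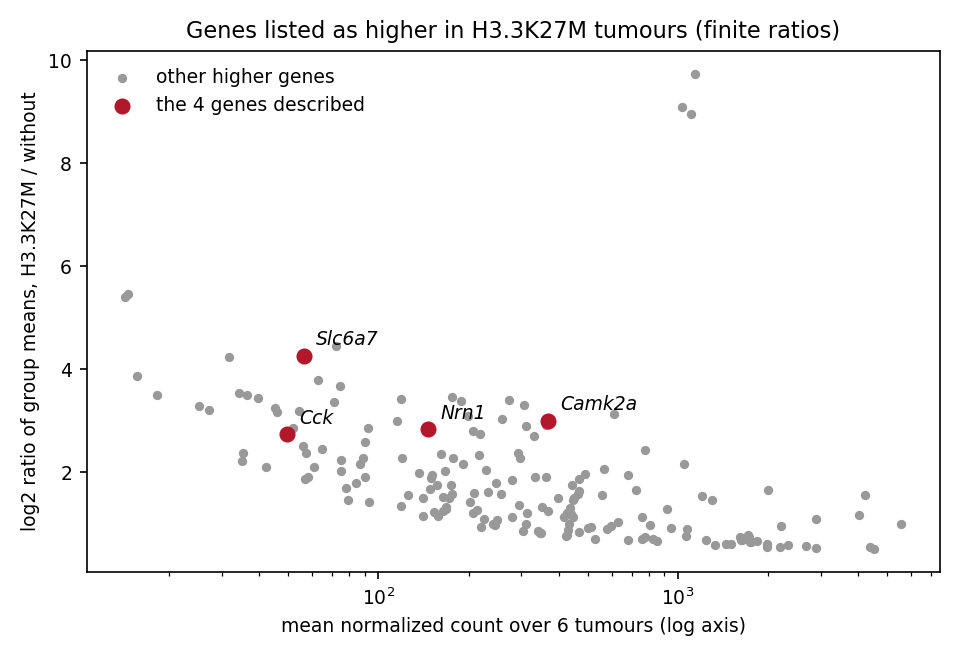
Log2 ratio of group means (H3.3K27M over without) against the mean normalized count over 6 tumours (log axis) for the genes listed as higher, with Camk2a, Slc6a7, Cck and Nrn1 in red and the others in grey; 1 gene with an infinite ratio is left out. Ratios are larger at lower levels, and Slc6a7 lies at 4.26, above the other 3 genes at 2.74 to 3.0; with a pseudocount of 10 on mean log2 values it is at 2.97, below Camk2a at 3.01.

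Within a group, the genes varied to different degrees. The SD of the log2 level, taken as log2(normalized count + 1), over the H3.3K27M tumours was 0.81 for Camk2a, 0.55 for Cck, 0.53 for Nrn1 and 0.28 for Slc6a7. The median over all 182 higher genes was 0.35. Over the tumours without H3.3K27M it was 1.48 for Camk2a, 1.24 for Nrn1, 1.89 for Slc6a7 and 2.51 for Cck, against a median of 0.37 over the higher genes and 0.49 over the 91 of them with lower levels, to which all but Camk2a belong. The values of Slc6a7 and Cck include a tumour with 0 reads, and with a pseudocount of 10 they were 0.56 and 0.90. The medians on that scale were 0.29 over the higher genes and 0.36 over the 91 with lower levels. Each of the 4 genes varied more among the tumours without the mutation than among those with it.

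The deviation of H3.3K27M replicate 2 from its group's mean log2 level was -0.93 for Camk2a, -0.60 for Cck and -0.61 for Nrn1, whereas it was -0.02 for Slc6a7. The proline transporter thus did not share the low value that the kinase, peptide and neuritin genes had in this tumour. That of replicate 3 without the mutation was -1.69 for Camk2a, -2.09 for Slc6a7, -2.88 for Cck and -1.33 for Nrn1. Neither tumour was low for these genes alone. H3.3K27M replicate 2 was the lowest of its group for 122 of the 182 higher genes (67.0%), against 14.8% for replicate 1 and 18.1% for replicate 3. Of the others, replicate 3 was the lowest for 81 (44.5%), against 22.5% for replicate 1 and 31.3% for replicate 2, a smaller contrast.

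Ratios between the genes were also taken within each tumour. Camk2a to Nrn1, as a ratio of normalized counts, was 2.83, 1.93 and 2.56 with H3.3K27M (replicates 1 to 3) against 2.02, 2.91 and 1.70 without it, so the groups overlapped in this ratio. Camk2a to Slc6a7 was 6.83, 3.0 and 8.74 with H3.3K27M and 25.8 and 8.25 in replicates 1 and 2 without it; replicate 3 had no Slc6a7 read. Slc6a7 to Cck was 1.44, 1.94 and 0.765 with the mutation and 0.313 and 0.522 in replicates 1 and 2 without it. These ratios share the library of each tumour and, for the low genes, rest on as few as 5 reads.

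The name excitatory could not be checked against its defining markers. Of 42 genes in a list of excitatory neuron and glutamate synapse genes, 4 are in the table, and these are the 4 genes described here. The vesicular glutamate transporters Slc17a7, Slc17a6 and Slc17a8, the glutamate receptor subunits of the AMPA and NMDA types and the cortical factors Tbr1 and Neurod6 are among the 38 without a value. A gene without a value either stayed at or above the authors' threshold or was not tested, and its level is unknown here.

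In the lists used, which are not complete, the wider pathways of the 4 genes are thinly represented too. Related genes outside the lists were not counted, whether or not the table holds them. Of 38 activity-induced genes, among them the immediate early genes Fos, Egr1, Arc and Npas4, the table holds Nrn1 alone. Of 22 genes of calcium/calmodulin signalling it holds Camk2a and Camkv, both higher. Camkv, a kinase-like protein of synapses, had 360, 299.5 and 222.6 normalized counts with H3.3K27M (replicates 1 to 3) against 133, 98.6 and 96.0 without it, without overlap. The authors' deposited table gives Camkv as 2.69-fold higher (adjusted p = 0.00114). Of 20 SLC6 transporters the table holds Slc6a7 alone, of 32 neuropeptide, peptide receptor and processing genes Cck alone, and of 16 neuritin, neurotrophin and related receptor genes Nrn1 alone. Against the 1.11% of tests listed as higher, 1 gene of a list this short is no more than a description.

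Genes of inhibitory neurons were listed in the same direction, as were 182 of all 223 genes in the table. Over all tests, 1.11% were listed as higher. Of 29 genes in the inhibitory list, 3 are in the table, all higher, with a median log2 ratio of 3.08. The GABA-synthesizing enzyme Gad2 was at 499 ± 259 against 46.9 ± 20.1, and the vesicular GABA transporter Slc32a1 at 355 ± 174 against 41.9 ± 18.4 normalized counts (SD, n = 3 each). The adjusted p-values of both in the authors' deposited table are 0.0166 and 0.0183. Of 39 general neuron genes, 12 are in the table, all higher, with a median log2 ratio of 1.67 and a range of 0.69 to 3.46. By adjusted p in the authors' deposited table they are led by the vesicle proteins Rab3c (3.19-fold) and Rab3a (1.62-fold), the sodium channel subunit Scn4b (11.0-fold) and the complexin Cplx1 (4.45-fold).

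The same tumour was lowest in each group by these lists, while the order of the other two differed. The mean log2 level of the 4 genes was 7.90, 7.03 and 7.78 with H3.3K27M (replicates 1 to 3) against 4.94, 4.98 and 1.97 without it. That of the 12 general neuron genes was 10.11, 9.25 and 10.06 with the mutation and 8.34, 8.03 and 7.51 without it. The 3 inhibitory genes were at 8.98, 7.63 and 9.22 and at 5.86, 5.97 and 4.69. In all 3 sets H3.3K27M replicate 2 was the lowest of its group and replicate 3 the lowest of the others. All of these genes were selected on the same contrast, so their common direction follows from the choice.

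Some markers of other cells were listed as different between the groups as well. They were selected on the same contrast, and the other genes of these lists have no value here. Over all tests, 1.11% were listed as higher and 0.251% as lower. Of 20 astrocyte markers, 4 are in the table, all higher: Aldh1l1, Aqp4, Agt and Slc4a4, with mean log2 levels of 8.75 to 9.34 in H3.3K27M tumours and 7.55 to 7.85 in the others. The list of 16 genes taken as oligodendrocyte precursor markers has 3 genes in the table, all lower: Bcas1, Dll3 and Kcnip3, at 11.54 to 11.95 against 12.24 to 12.52. These 3 are read as genes of the oligodendrocyte lineage, since they are not shown to mark precursors alone. Of 19 myelin genes, Ermn was higher and Pllp lower, and of 14 choroid plexus genes the table holds Otx2, which was higher. No gene of the microglia (14) and endothelial (12) lists is in the table, so their levels are unknown. The part of a different mix of cells in the values of Camk2a, Slc6a7, Cck and Nrn1 was not tested.

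**Figure D3:**
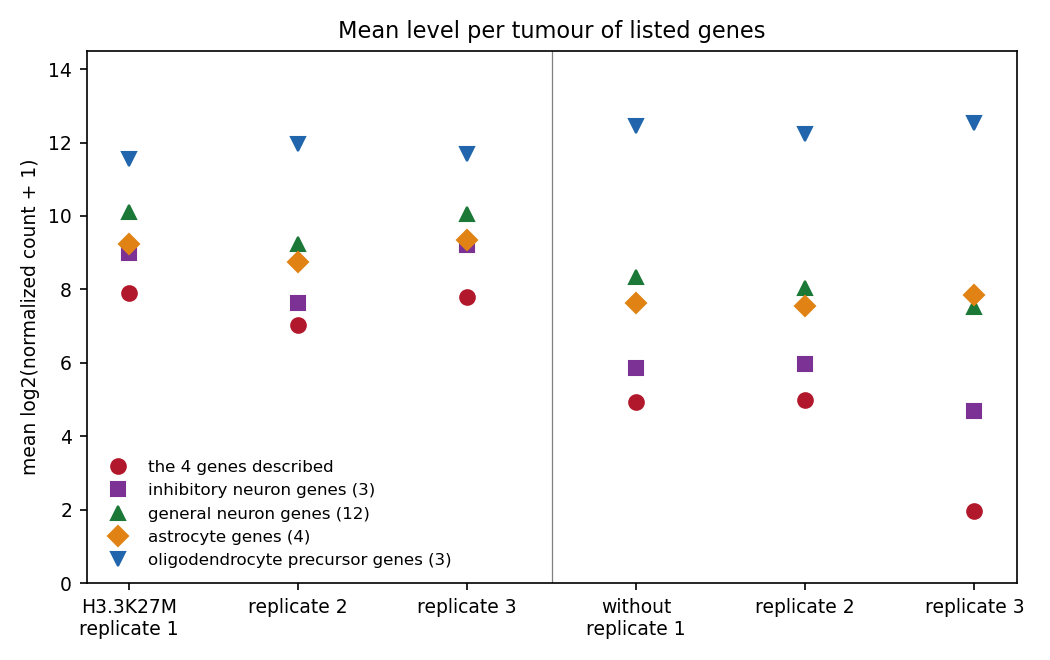
Mean of log2(normalized count + 1) per tumour over Camk2a, Slc6a7, Cck and Nrn1 and over the listed genes of 4 marker lists (number of genes in brackets); heights of different lists are not comparable, since gene lengths differ. The 3 neuron sets are lowest in replicate 2 of the H3.3K27M tumours and in replicate 3 of the others. The oligodendrocyte lineage genes, named precursor genes in the legend, are lower in H3.3K27M tumours.

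Set against the 12 general neuron genes of the same tumour, 3 of the 4 genes lay higher in all 3 H3.3K27M tumours without overlap. The same held for 36 (21.2%) of the 170 higher genes outside that list. Genes lying wholly lower in H3.3K27M tumours were not counted, so the share without overlap in either direction is not given. The comparison is a description with no test, since all of these genes were selected on the same contrast. The log2 level of Camk2a minus the mean of the 12 was -0.33, -0.96 and -0.47 with H3.3K27M (replicates 1 to 3) against -1.31, -1.42 and -3.22 without it. For Nrn1 it was -1.82, -1.90 and -1.83 with H3.3K27M, nearly the same in all 3 tumours, and -2.31, -2.94 and -3.94 without it. For Slc6a7 it was -3.09, -2.53 and -3.59 against -5.74, -4.36 and -7.51. Cck overlapped between the groups on this scale, at -3.61, -3.48 and -3.20 against -4.24, -3.48 and -7.51. The differences of the group means, H3.3K27M minus others, were 1.40 for Camk2a, 1.21 for Nrn1, 2.80 for Slc6a7 and 1.65 for Cck. With a pseudocount of 10 they were 1.27, 0.92, 1.22 and 0.43, and without replicate 3 of the tumours lacking H3.3K27M they were 0.78, 0.77, 1.99 and 0.43.

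Against the 3 inhibitory genes the picture differed, and all 4 genes overlapped between the groups. Of the 179 higher genes outside that list, 2.79% (5 genes) lay higher in all 3 H3.3K27M tumours without overlap on this scale. Genes lying wholly lower in H3.3K27M tumours were not counted, so the share of genes that overlap is not given. The mean log2 level of the 3 inhibitory genes itself differed by 3.10 between the groups, against a median log2 ratio of 1.58 over the 182 higher genes. The difference of the group means was 0.14 for Camk2a, -0.05 for Nrn1, 0.39 for Cck and 1.55 for Slc6a7. The SDs were 0.22 with H3.3K27M and 0.80 without it for Camk2a, 0.36 and 0.68 for Nrn1, 0.33 and 1.79 for Cck and 0.92 and 1.20 for Slc6a7 (n = 3 each). For Camk2a, Nrn1 and Cck the difference lay within the spread between tumours of at least 1 group. These values were not tested, since all of the genes were selected on this contrast, and an overlap does not show that the genes changed alike.

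**Figure D4:**
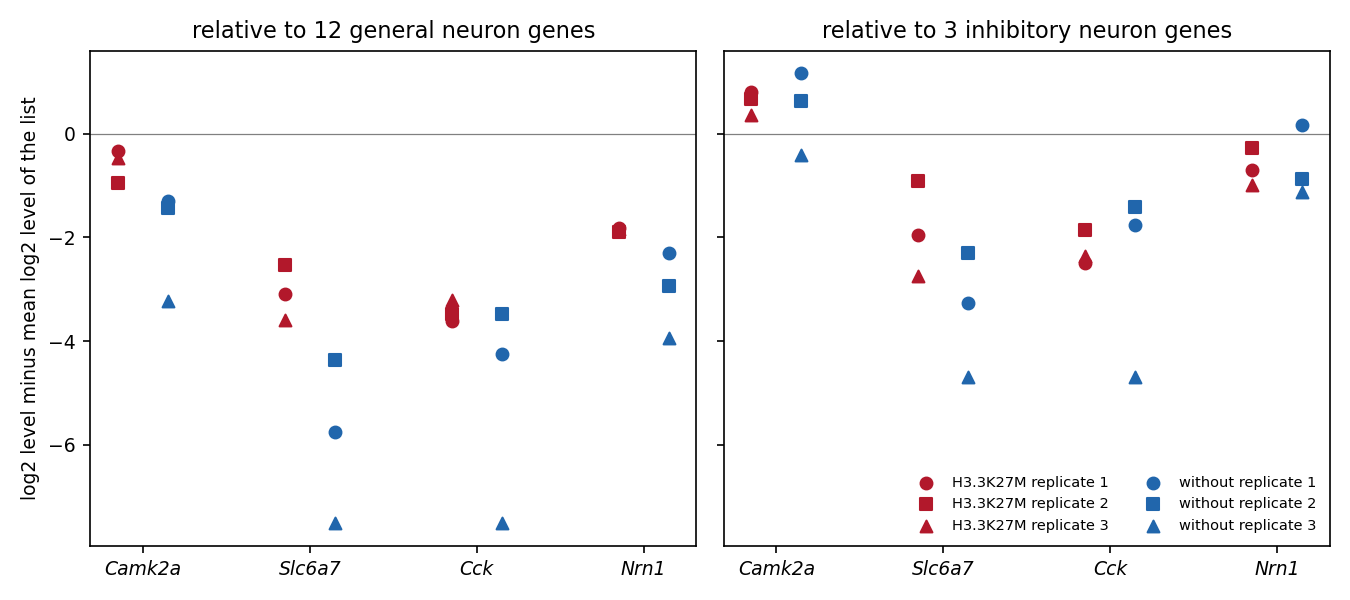
Log2(normalized count + 1) of each gene minus the mean over 12 general neuron genes (left) or 3 inhibitory neuron genes (right) in the same tumour; red is H3.3K27M, blue is without, and markers are replicates. On the left the groups overlap for Cck alone, and on the right for all 4 genes.

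Profiles over the 6 tumours were compared by the root-mean-square difference of log2(normalized count + 1), each gene centred on its own mean, so that a smaller value is a closer profile. The nearest to Camk2a were Barhl1 (0.28), a homeobox factor gene, the neurofilament gene Nefh (0.29) and Nrn1 (0.30), against a median of 1.42 over the table. The nearest to Nrn1 were Barhl1 (0.25), Clvs2 (0.29) and the auxilin gene Dnajc6 (0.29), with Camk2a as the 4th nearest and a median of 1.24. The kinase and neuritin genes were thus close in profile to each other.

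The nearest genes to the proline transporter and cholecystokinin genes were further off, but so were their medians over the table. The nearest to Slc6a7 were Mab21l2 (0.78), the homeobox gene Otx2 (0.79) and the histamine receptor gene Hrh3 (0.79), with a median of 2.06 over the table. The nearest to Cck were Hrh3 (0.46), Otx2 (0.49) and the zinc finger gene Zfp804a (0.63), with a median of 1.92. Otx2, Hrh3 and Zfp804a are at 0 in replicate 3 without H3.3K27M, as Cck and Slc6a7 are. Nearness over 6 tumours of 2 groups reflects the group difference by which all these genes were selected.

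Camk2a and Slc6a7 are next to each other on chromosome 18 among protein-coding genes of GENCODE M21, on opposite strands and without shared exons. Of 215 listed protein-coding genes placed there, 15 (6.98%) have another listed gene as their next protein-coding neighbour. The root-mean-square difference between the profiles of Camk2a and Slc6a7 was 0.97. Slc6a7 was the 50th nearest gene to Camk2a (median 1.42 over the table). Seen from Slc6a7, Camk2a was the 7th nearest (median 2.06), so the rank depends on the gene from which it is counted.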

How the data were processed

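RNA of 6 snap-frozen tumours was sequenced on Illumina instruments, per the labels' protocols, and groups were taken from the sample titles. The design text calls the tumours independent, so each was 1 replicate; replicates were numbered in the order of the samples. The authors' tool was DESeq (no version), with the builds mm9 and NCBIM37, per the submitters' processing notes; aligner, counter and strand use are not given in those sources. The authors deposited a signal of normalized counts per tumour, its group means, the ratio of these (fold change) and its log2, plus raw and adjusted p-values. These were used as deposited. Their Benjamini-Hochberg values were returned with 16365 tests, and the largest adjusted p listed was 0.0495. All values of a column were whole multiples (within 0.01) of 1 step, read as 1 read, with implied size factors of 0.917 to 1.06. The count of per-tumour columns matching no sample was 0.

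Means, SDs, ratios and exact 95% binomial intervals were computed in Python 3.11.15 with pandas 2.3.3 and scipy 1.17.1. Intervals and the limit of 3 reads for a count of 0 cover counting error only. No test of the group difference was run, since the genes had been selected on it. The step and test-number estimates were tested on simulated data and recovered in 40 of 40 runs. The 4 genes and the 14 gene lists were chosen with earlier results of these data known. The text names the 4 genes, every listed gene of the lists tied to them, up to 4 per other list by adjusted p, and the 3 nearest profiles per gene; 1 gene that this rule names is not reported here. Alternatives were another pseudocount, medians, unscaled reads, a level filter, a stricter threshold and leaving out each tumour.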

Additional observations from a re-analysis of the deposited data

How the results depend on the processing

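Because the groups do not overlap for Camk2a, Slc6a7, Cck and Nrn1, leaving out a tumour, medians or a pseudocount could not turn the sign of their ratios, so only sizes are compared. From mean log2 values the ratios with a pseudocount of 1 and of 10 were 9.48 and 8.07 for Camk2a, 25.1 and 7.81 for Slc6a7, 11.3 and 4.54 for Cck and 8.32 and 6.34 for Nrn1. Ratios of medians were 7.93, 20.7, 5.56 and 9.0, and those of reads without depth scaling 8.30, 19.4, 6.82 and 7.39, in the same order. Cck did not pass a filter at a mean of 50 normalized counts, which leaves the other ratios as they are. Leaving out 1 tumour gave ratios of 5.78 to 11.4 for Camk2a, 12.8 to 42.6 for Slc6a7, 4.46 to 10.7 for Cck and 5.28 to 11.7 for Nrn1. With a pseudocount of 10 the log2 SD among tumours without H3.3K27M was 0.56 in place of 1.89 for Slc6a7 and 0.90 in place of 2.51 for Cck, whose values include 0, and the difference of Slc6a7 relative to the general neuron genes was 1.22 in place of 2.80; the comparison relative to neuron genes and its alternatives were chosen after seeing the data. At an adjusted p under 0.01 in the authors' deposited table, Camk2a is lost, leaving 1 gene of calcium/calmodulin signalling, 0 inhibitory, 3 general neuron, 2 astrocyte and 1 myelin genes, and at a mean of at least 50 normalized counts 0 neuropeptide genes are left. Depth limits Slc6a7 and Cck most, with 17 and 39 reads over the tumours without H3.3K27M. No paired analysis was possible because the labels give the tumours no shared replicate numbers.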
